A study of Mus musculus with 13 samples.

Results

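Evc, Evc2, Smo and Ptch1 are 4 genes of Hedgehog signal reception, and their levels were followed across neurons and tissue sections from mice. They were chosen by name, with earlier results on these cells known, among genes that have a row in the count table of dissociated cells or in that of tissue sections. Of the 4, 3 had a row among the 15114 genes of the cell table, and all 4 had one among the 32285 genes of the section table. Smo has no row in the cell table, so its level in single neurons was not analysed here.

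Hedgehog proteins are secreted signals. Their receptor Ptch1 keeps the membrane protein Smo inactive in the absence of ligand; when ligand binds Ptch1, Smo gathers in the primary cilium, a single antenna-like projection of the cell, and signals onward to the GLI transcription factors. Evc and Evc2 are membrane proteins that form a complex at the base of the cilium, bind active Smo there and help pass its signal on; mutations in either human gene cause Ellis-van Creveld syndrome, a skeletal disorder. Ptch1 is also a classical target gene of the pathway. Cortical neurons carry primary cilia, and Hedgehog signalling in the cortex is best known from development and from astrocytes.

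The neurons came from the retrosplenial cortex, a midline cortical area, of wild-type B6 mice with no named treatment. They were microdissected from acute slices, dissociated and pooled across slices, and their column names give an anterior, medium or posterior dissection. The 765 cells formed 11 samples from 3 animals, of which animal 1 gave 3 (numbered 1 to 3), animal 2 gave 4 (11 to 14) and animal 3 gave 4 (15 to 18). The second assay was spatial transcriptomics (Visium) on 2 wild-type brain sections of 10 µm, called S4 and S8, in which each of 1973 spots can hold several cells. The ages and sexes of the mice are not given in the sources used here.

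Totals ran from 2306470 to 15974543 counts per cell sample, with medians per cell of 65843 in animal 1, 132797 in animal 2 and 185995 in animal 3. The sections held 8436518 and 6389042 counts. Slc17a7, the vesicular glutamate transporter of excitatory cortical neurons, had a count in 756 of the 765 cells, and the 3 inhibitory markers with a row summed to at most 13.01 CPM (counts of a gene scaled to the same fixed total of counts in each sum) in any named class of any animal. The sections shared 162 spot barcodes, which in this assay are position codes on the slide.

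Evc and Evc2 lie head to head on mouse chromosome 5 (RefSeq, build GRCm38.p6), on opposite strands, with 1597 bases between their annotated starts. All 4 members were matched in the RefSeq promoter table. The 250 bases before the starts of this pair are shown because the 2 genes had their highest levels in the same class of neurons. The Evc window is chr5:37336882-37337131 on the minus strand and the Evc2 window is chr5:37338228-37338477 on the plus strand. Each reads 5′ to 3′ on its gene's strand, and capitals mark the longest run of letters that the windows share, which stands in opposite orientation in them.
Evc: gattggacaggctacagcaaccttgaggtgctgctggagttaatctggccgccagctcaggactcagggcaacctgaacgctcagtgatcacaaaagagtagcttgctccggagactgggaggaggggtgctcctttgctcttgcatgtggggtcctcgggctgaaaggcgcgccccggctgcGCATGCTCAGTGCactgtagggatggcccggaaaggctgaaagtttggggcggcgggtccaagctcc
Evc2: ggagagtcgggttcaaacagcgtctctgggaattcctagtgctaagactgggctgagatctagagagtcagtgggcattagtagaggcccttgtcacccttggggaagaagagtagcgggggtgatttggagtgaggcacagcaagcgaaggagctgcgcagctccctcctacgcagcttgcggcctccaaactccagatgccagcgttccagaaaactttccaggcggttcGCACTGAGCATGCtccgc
The run is GCATGCTCAGTGC in Evc and its reverse complement GCACTGAGCATGC in Evc2, 13 bases long, and it starts 67 bases before the Evc start and 18 bases before the Evc2 start. Of all 32851 RefSeq mouse promoter windows of this length, 7 hold it on either strand (0.0213%). The 7 include the Evc and Evc2 windows, from which the run was chosen, so this share is no test of a link between them. The GLI consensus GACCACCCA was searched on both strands and is in none of the 4 members' windows; 0.225% of all windows hold it. GTTGCC, a core motif of the RFX factors that act on many cilium genes, is in the Evc window once and in none of the other 3, against 10.4% of all windows; neither motif overlaps the shared run. These letters describe the windows and say nothing of binding. The files were counted on NCBIM37 for cells and on NCBIM37 or mm10 for sections, per the submitters' processing notes, and no genome was used here.

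Neurons were grouped by clustering without the genes of the Hedgehog list and named from marker genes. The largest class was 241 cells of clusters 1, 7 and 9, with cells from all 11 samples. It was led by Calb1, Ddit4l and Ntn5, and in clusters 1 and 7 also by Stard8. These genes served as markers of superficial neurons, and the class is called the Calb1-led class. The others were a layer 5 ET-like (extratelencephalic) class of 140 cells, a Tnnc2- and Eps8l2-led class of 121, layer 6 IT-like (intratelencephalic) cells (73), layer 6 CT-like (corticothalamic) cells (71), layer 5 IT-like cells (68), layer 6b-like cells (11) and 3 unnamed clusters of 24, 11 and 5 cells. Of the superficial markers, Calb1 and Stard8 also led the layer 6 IT-like cells, Ddit4l the layer 5 IT-like cells, and all 4 the unnamed cluster of 5 cells. Another superficial marker, Cux2, has no row in the cell table. In turn, Penk, used as a layer 6 IT marker, also led clusters 1, 7 and 9. Tshz2, used as a retrosplenial marker, also led clusters 1 and 9. Although Evc2 was left out of the clustering, it stood among the 10 leading genes of each of the clusters 1, 7 and 9. Levels by class are given as descriptions with no test, because the members were chosen with these class levels known. Levels are CPM of counts summed over the cells of a class in 1 animal, and the sources do not say whether counts are reads or molecules.

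Evc2 was concentrated in the Calb1-led class. Its level in that class was 38.3 CPM in animal 1, 72.3 in animal 2 and 75.7 in animal 3, a mean of 62.1 ± 20.7 CPM (SD, n = 3). In all other cells it was 1.09, 3.17 and 1.85 CPM, so the animals' ranges were far apart. In pooled counts the class was 31.4-fold above the other cells, with 35.0-, 22.8- and 40.9-fold in the single animals, and it held 92.7% of the 2632 Evc2 counts. A count was present in 150 of 241 cells of the class, 62.2% (exact 95% binomial interval 55.8% to 68.4%). In the other cells it was present in 34 of 524, 6.49% (4.54% to 8.95%). By animal the shares were 38.5%, 62.4% and 67.2% in the class and 1.59%, 8.06% and 8.02% in the other cells. Median totals were 133880 counts per cell in the Calb1-led class and 192677 in the Tnnc2-led class. With every cell thinned to 50000 counts, which leaves out 61 cells, the shares were 59.4% and 3.33%.

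Next in order for Evc2 came the Tnnc2-led class, at 4.27, 9.91 and 4.04 CPM in the 3 animals, with a count in 19 of 121 cells (15.7%). Every animal's value there was above its own value in each of the layer 5 ET-, layer 5 IT-, layer 6 IT- and layer 6 CT-like classes, whose means ran from 0.299 to 0.879 CPM and whose ranges overlapped one another. In unnamed cluster 10 and in the layer 6b-like cells no Evc2 count was found in 24 and 11 cells, which allows shares of up to 12.5% and 27.3%. These intervals and limits cover counting error only.

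Evc showed the same leading class with fewer cells and a wider spread. In the Calb1-led class its level was 7.42, 22.1 and 10.06 CPM in animals 1, 2 and 3, a mean of 13.2 ± 7.82 CPM (SD, n = 3), against 2.52, 0.490 and 1.03 CPM in all other cells. The pooled ratio was 14.2, but it was 2.95 in animal 1 against 45.1 and 9.79 in animals 2 and 3. Animal 1 gave 12 Evc counts from 3 of its 26 Calb1-led cells, and its layer 5 ET-like cells stood at 6.29 CPM, with a count in 6 of 42 cells. In animals 2 and 3 the layer 5 ET-like class was at 1.56 and 0.849 CPM. Over all animals, 45 of 241 Calb1-led cells had an Evc count, 18.7% (13.96% to 24.2%), against 12 of 524 other cells, 2.29% (1.19% to 3.97%). By animal the shares were 11.5%, 28.0% and 13.1% in the class and 4.76%, 0.474% and 2.67% in the other cells. The pooled intervals do not cover this spread between animals. After thinning the pooled shares were 15.2% and 1.67%.

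Outside these 2 classes Evc was rare. The Tnnc2-led class had it in 1 cell, with 28 counts, and the layer 6 IT-like class in 2 cells. No Evc count was found in 71 layer 6 CT-like cells, which allows a share of up to 4.23%, or in 68 layer 5 IT-like cells, which allows up to 4.41%. For Evc the layer 5 ET-like class was second in animals 1 and 2, in animal 2 from 17 counts in 1 of 65 cells. In animal 3 the Tnnc2-led class, at 2.36 CPM from its 1 cell with a count, stood above the layer 5 ET-like class. The layer 6 IT-like class of animal 3, at 0.850 CPM, was level with the layer 5 ET-like class, at 0.849 CPM. For Evc2 the Tnnc2-led class was above the layer 5 ET-like class in all 3 animals.

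**Figure D1:**
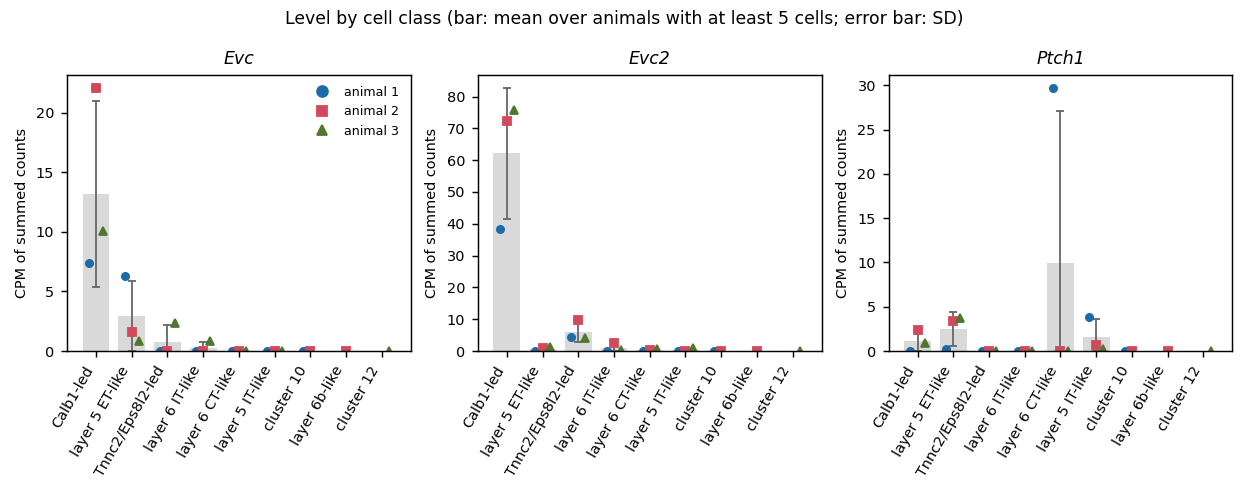
Level of Evc, Evc2 and Ptch1 in each cell class, as CPM of summed counts on the vertical axis; points are animals, bars are means over the animals with at least 5 cells of the class and error bars are SD. Evc2 stands at 38.3 to 75.7 CPM in the Calb1-led class and at 9.91 CPM or less in every other class shown, and the high Ptch1 point of the layer 6 CT-like class is a single cell of animal 1.

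Signs of astrocytes were low in the Calb1-led class, and some oligodendrocyte signal was present. Its 5 astrocyte markers with a row summed to 0, 4.48 and 4.54 CPM in animals 1, 2 and 3, and its 5 oligodendrocyte markers to 87.8, 88.4 and 76.5 CPM, against 142.3 to 169.3 CPM in the layer 5 ET-like class. The microglial and endothelial lists had no row in the cell table. In RefSeq the Evc gene model overlaps that of Crmp1, a collapsin response mediator protein, and strand use in counting is not stated, so their reads may not be fully separate. Crmp1 was at 152 ± 38.5 CPM (SD, n = 3) in the Calb1-led class and at 152 ± 33.6 in the layer 5 ET-like class. It was highest, at 307 ± 63.7, in the Tnnc2-led class, where Evc was found in 1 cell. The part of Crmp1 reads in the Evc counts was not tested.

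Within the Calb1-led class all 3 clusters held Evc2: a count was present in 66.9% of the 142 cells of cluster 1, 56.3% of the 64 of cluster 7 and 54.3% of the 35 of cluster 9. For Evc the shares were 17.6%, 15.6% and 28.6%. By sample, Evc2 was found in the class in 11 of 11 samples, from 25% to 75% of its cells (median 62.5%), with a lowest level of 7.55 CPM, a median of 64.7 and a highest of 102.8. The 3 samples of animal 1 held the 3 lowest shares. Evc was found in the class in 10 of 11 samples, from 0% to 41.7% of cells (median 16.7%) and from 0 to 36.1 CPM (median 12.9). The sample with none was sample 1, with 8 cells of the class.

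**Figure D2:**
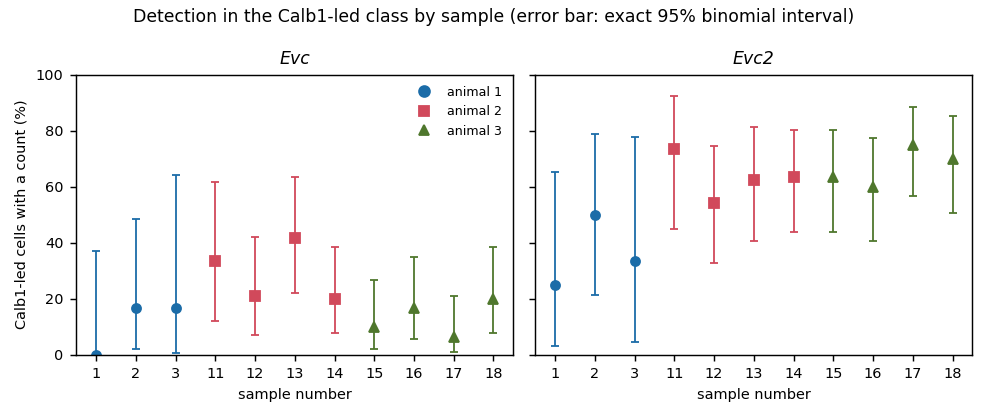
Share of Calb1-led cells with a count of Evc (left) or Evc2 (right) in each of the 11 samples, in percent, coloured by animal, with exact 95% binomial intervals. Shares of Evc2 lie between 25% and 75% and those of Evc between 0% and 41.7%.

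Evc and Evc2 were also compared cell by cell. In the Calb1-led class, 27 cells had counts of both, 18 of Evc alone, 123 of Evc2 alone and 73 of neither. Evc2 was present in 60% of the cells with Evc and in 62.8% of those without. Median totals were 120722 and 136506 counts per cell in the cells with and without Evc. After thinning, the shares were 52.9% and 60.5%, and they lay in both orders among the animals: at full depth 69.2% against 59.7% in animal 2 and 50% against 69.8% in animal 3.

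Ptch1, the receptor, was found in few neurons. It had 135 counts in 19 of 765 cells, 2.48% (1.502% to 3.85%), and 31 of these counts came from 1 layer 5 ET-like cell of animal 3. By animal its level over all cells was 1.67, 1.42 and 0.879 CPM. In the Calb1-led class it was 0, 2.38 and 0.936 CPM, with a count in 8 of 241 cells, and in all other cells 1.97, 1.12 and 0.848 CPM, so that the groups overlapped. The layer 5 ET-like class stood at 0.274, 3.39 and 3.76 CPM, with 7 of 140 cells. The highest value of any class, 29.7 CPM in the layer 6 CT-like cells of animal 1, was 16 counts in a single cell. No Ptch1 count was found in the 121 cells of the Tnnc2-led class, which allows a share of up to 2.48%, or in 73 layer 6 IT-like cells, which allows up to 4.11%.

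No other gene of the pathway list reached the class difference of Evc and Evc2, which were chosen with their class levels known. Their ranks are therefore descriptions and no test. A list of 42 genes by role had 32 in the cell table, 31 of them with enough counts for class sums. On the log2(CPM + 1) scale, which understates differences of low genes, Evc2 was 4.98 ± 0.27 (SD over 3 animals) higher in the Calb1-led class than in the mean of the other classes, rank 6 of 13791 genes, and Evc was 3.14 ± 1.04 higher, rank 54. Ptch1 differed by 0.14 ± 1.32, with animals on both sides of 0. The median difference of the other 28 genes was -0.08, beside 0.06 for all 13791. Of the 28, 6 were higher and 6 lower in the Calb1-led class in all 3 animals, beside 3501 higher and 2406 lower of all 13791 genes.

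**Figure D3:**
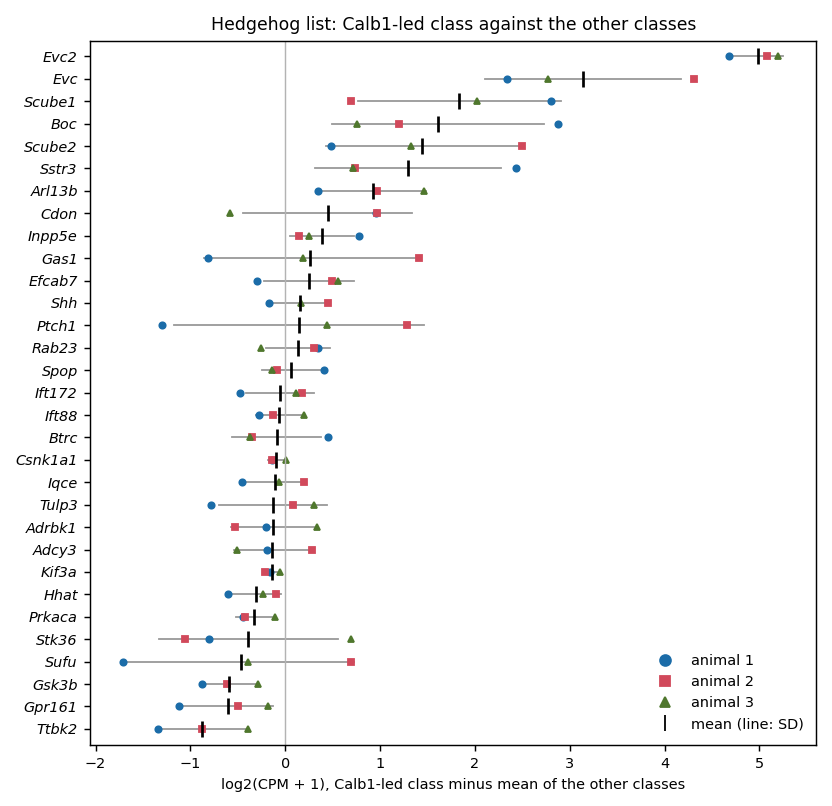
Difference in log2(CPM + 1) between the Calb1-led class and the mean of the other classes for the 31 Hedgehog list genes in the class sums; points are animals, black ticks are means and grey lines are SD. Evc2 at 4.98 and Evc at 3.14 stand at the top, and the next gene, Scube1, is at 1.84.

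By role, the other 2 genes of the EvC complex were not concentrated in the Calb1-led class. Iqce, which anchors the complex at the cilium base, was at 15.1 CPM there and at 16.1 CPM in all other cells, a log2 difference of -0.11 ± 0.33. Efcab7, its partner in that anchoring, was at 1.90 and 1.71 CPM, a difference of 0.25 ± 0.47. Both were found in many classes, Iqce in 238 cells and Efcab7 in 25.

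Among ligands and their release factors, Shh itself was found in 38 cells and was highest in the Tnnc2-led class, at 4.39 CPM, against 0.93 CPM in the Calb1-led class. Scube1, a secreted protein that helps release Hedgehog ligand, had the highest level of this role, with 39.2 CPM in the Calb1-led class, 113.3 in the layer 5 IT-like class and 236.5 in the layer 6b-like cells of 1 animal. Among receptors, Boc, a co-receptor, was highest in the layer 5 IT-like class at 60.6 CPM and was at 10.7 CPM in the Calb1-led class. Against the mean of the other classes, Scube1 and Boc were higher in the Calb1-led class in all 3 animals. Their log2 differences were 1.84 ± 1.07 and 1.61 ± 1.12. Cdon and Gas1, also co-receptors, were at 2.75 and 1.15 CPM in the Calb1-led class and at 2.78 and 0.64 CPM in the other cells.

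Transducers ranged widely in level, as CPM not adjusted for gene length. Csnk1a1, a kinase of the GLI proteins, was found in 734 of 765 cells, and Gpr161, a ciliary receptor that restrains the pathway, in 17. Csnk1a1 was at 290.2 CPM in the Calb1-led class and 312.1 CPM in the other cells. Sufu, the inhibitor that holds GLI proteins, was at 5.19 and 8.50 CPM. Gli1, Gli2, Gli3 and Kif7 have no row in the cell table, in which every listed gene has a count in at least 10 cells. Of the cilium genes, Kif3a, a motor subunit of ciliary transport, was at 577 CPM in the Calb1-led class and 668 in the others. Arl13b, a ciliary GTPase, was higher in the Calb1-led class in all 3 animals, by 0.93 ± 0.56, as was Sstr3, a ciliary somatostatin receptor, by 1.29 ± 0.98. Ttbk2, a kinase that starts cilium assembly, was lower in all 3, with a difference of -0.87 ± 0.47. These are among the 12 list genes with one direction in all 3 animals, a share of the list near that over all genes.

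Genes whose pattern was most like that of each member were read from 18 sums of 7 classes in 3 animals. These sums share animals, samples and the clustering, so the correlations are descriptions. For Evc2 they were Arhgap6 (Pearson r = 0.91), Fam181b (0.90), Fst, the activin-binding protein follistatin (0.88), Tmem37 (0.87) and Otof, otoferlin (0.87). For Evc they were Syt17 (0.88), Hmmr (0.88), Baz1a (0.86), Sh2b2 (0.84) and again Tmem37 (0.83). Evc and Evc2 correlated at 0.73, which put Evc2 at rank 41 among the genes most like Evc and Evc at rank 67 among those most like Evc2. For Ptch1 they were Myh11 (0.91), Insl5 (0.88), Chek1 (0.87), Lass1 (0.83) and Ntn1 (0.82), and the highest of its 18 sums is that of the layer 6 CT-like class in animal 1, with its single cell of 16 counts.

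Dissection levels could be tested over animals, and no member was called in any of the 5 comparisons. Counts were summed per animal and level and tested with edgeR's quasi-likelihood test, with the animal as a block and p-values adjusted over all genes. In all neurons, Evc stood at 0.831, 5.78 and 5.95 CPM in the anterior sums of animals 1, 2 and 3, at 7.33, 7.05 and 3.97 CPM in the medium sums and at 3.72, 3.31 and 2.501 CPM in the posterior sums. The anterior sums overlapped those of both other levels, and posterior against anterior gave -0.38 on the log2 scale (SE 0.76) with an edgeR adjusted p of 1.00. All 3 posterior sums of Evc lay below all 3 medium sums, and the posterior sum was the lower in each animal. That change, of -0.86 (SE 0.75), was not called (edgeR adjusted p = 0.85), and edgeR called 0% of all genes in this comparison. Evc2 stood at 15.5, 13.03 and 31.5 CPM in the anterior, 2.00, 24.6 and 37.98 in the medium and 2.30, 24.8 and 15.9 in the posterior sums. Its posterior against anterior change was -0.91 (SE 0.65, edgeR adjusted p = 1.00), with animals 1 and 3 lower and animal 2 higher. It was -0.03 without animal 1 and -1.91 without animal 2.

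Over all 13628 genes tested, edgeR called 14 between posterior and anterior neurons (0.103%), 1 between medium and anterior (0.00734%) and 0 between posterior and medium (0%, with 866 genes at an unadjusted p under 0.05). None of the 32 Hedgehog list genes was among them. Sstr3 came nearest, at -1.68 (log2, SE 0.34) for posterior against anterior and an edgeR adjusted p of 0.27. DESeq2, run on the same sums, called 135, 14 and 124 genes, Sstr3 among them for posterior against anterior and no member in any comparison. Medium against anterior gave 0.49 (SE 0.76) for Evc and -0.35 (SE 0.65) for Evc2, with edgeR adjusted p of 0.95 and 0.96, and posterior against medium gave -0.55 (SE 0.61) for Evc2, with 0.89.

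The Calb1-led class made up different shares of the neurons at each level: 37.8%, 17.1% and 4.17% of animal 1's anterior, medium and posterior cells, 26.4%, 30.3% and 34.9% of animal 2's and 52.4%, 43.0% and 24.3% of animal 3's. The level with the largest share was also the level with most Evc2 in animals 1 and 2 but not in animal 3, and the part of these shares in the Evc2 levels of all neurons was not tested. The summed oligodendrocyte markers also moved with level, at 482.5, 158.1 and 191.0 CPM in the anterior sums against 87.3 to 143.2 CPM in the medium and posterior ones. The 5 cells of cluster 13, which oligodendrocyte genes led, were all anterior.

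Within the Calb1-led class, Evc2 was at 46.3, 52.1 and 62.1 CPM in the anterior sums of animals 1, 2 and 3, at 12, 86.6 and 102.7 in the medium sums and at 85.5 and 74.3 in the posterior sums of animals 2 and 3. The low medium value of animal 1 came from 6 cells, and its 3 posterior cells were left out. The log2 fold change was 0.18 (SE 0.55) for posterior and 0.17 (SE 0.49) for medium against anterior, with edgeR adjusted p of 1.00 and 1.00. Evc was at 2.48, 24.97 and 11.8 CPM in the anterior, 36.0, 29.9 and 11.3 in the medium and 11.5 and 3.40 in the posterior sums, with changes of -1.08 (SE 0.92) and 0.95 (SE 0.86) and the same adjusted p. An interval of 2 SE around the Evc posterior change runs from -2.93 to 0.76, an interval that includes 0 as well as a several-fold lower level for Evc. In this class edgeR called 0 of 11998 genes for posterior (0%, 291 at an unadjusted p under 0.05) and 0 for medium (0%, 340 at an unadjusted p under 0.05) against anterior, and DESeq2 called 7 and 20. Ptch1 had no count in several sums, so its fitted changes are not given; in the Calb1-led class it had counts in 4 medium cells of animal 2, 1 anterior cell of animal 3 and 3 posterior cells of animal 3.

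**Figure D4:**
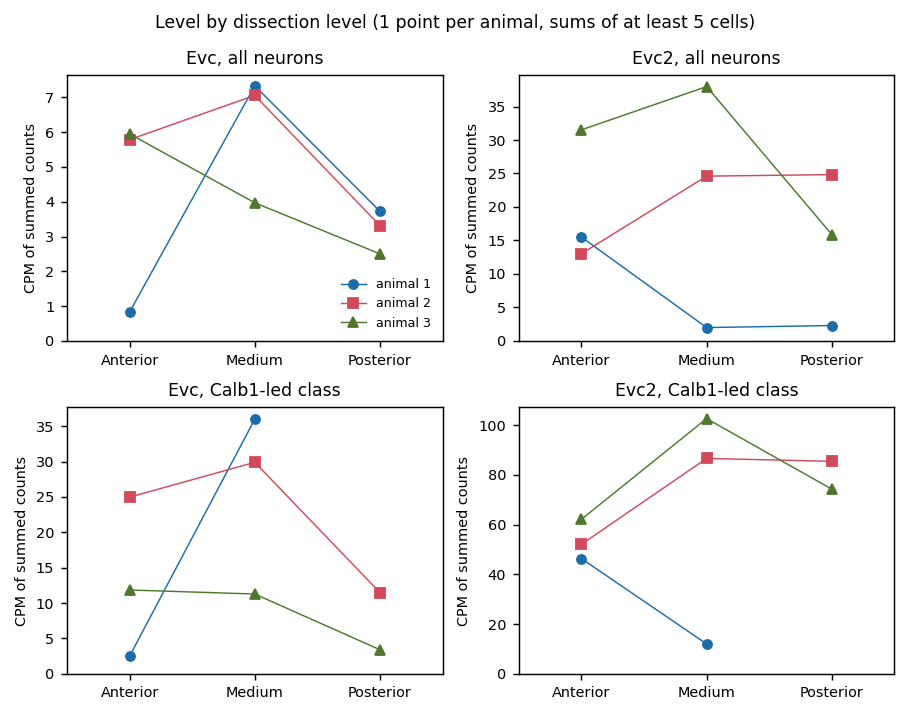
Level of Evc and Evc2, as CPM of summed counts, at the anterior, medium and posterior dissections in all neurons (top) and in the Calb1-led class (bottom), with 1 point per animal and lines joining the sums of an animal. In all neurons the posterior points of Evc, 2.501 to 3.72 CPM, lie below its medium points, 3.97 to 7.33 CPM, and animal 1 has no posterior point for the Calb1-led class.

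In the sections all 4 genes could be read, and spots grouped by clustering are numbered groups described by their leading genes. Levels there are those of small regions with several cells each, in which fewer cells of a type and less RNA per cell cannot be told apart. Evc2 was found in 140 of 1022 spots of S4 (13.7%) and 86 of 951 of S8 (9.04%), and Ptch1 in 168 (16.4%) and 151 (15.9%). Smo was found in 41 (4.01%) and 43 (4.52%) and Evc in 26 (2.54%) and 29 (3.05%). Most positive spots held a single count of a gene, and the highest was 3 counts.

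Evc2 was highest in spot group 1, at 48.0 CPM in S4 and 41.8 CPM in S8, with a count in 57 of 149 and 29 of 128 spots (38.3% and 22.7%). This group was led by Npnt, Stard8, Robo3, Cpne9, Ddit4l and Cux2, with Evc2 again among its 10 leading genes though left out of the clustering. The 5 Calb1-led markers summed to 615.6 and 585.1 CPM in group 1, the highest of the groups in each section. The 4 retrosplenial markers (Tnnc2, Eps8l2, Scnn1a, Tshz2) summed there to 29.6 and 27.1 CPM, against 298.8 and 272.2 in group 2. Evc2 in group 2 was at 17.3 CPM in S4 and 12.9 CPM in S8, with a count in 10.7% and 6.77% of spots. In group 7, led by Trh and Dlk1, it was at 19.9 and 21.5 CPM. Evc2 was lowest in group 3, led by Myl4, Fezf2 and Deptor, at 4.74 and 4.71 CPM, and in group 4, led by Foxp2, at 3.03 and 5.95 CPM, except that group 6 of S8 stood at 1.84 CPM. Group 10, with 48 spots of S4 alone, was led by Ndst4 and also by Arhgap6, Penk, Plk5 and Igfn1, and had Evc2 in 12 spots, 25.5 CPM.

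Group 5, led by Ptgds, Vim, Gfap and Aqp4, had Evc2 at 22.0 and 30.1 CPM. Its 6 astrocyte markers summed to 1173 and 1548 CPM, above the 388.3 to 768.3 CPM of the other groups, and its Calb1-led markers to 347.7 and 261.3 CPM. The part of either in its Evc2 level was not tested.

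Ptch1 had another order of groups. It was highest in group 2, led by Tshz2, Nrep, Syt2 and Slc17a6, at 33.7 CPM in S4 and 40.7 in S8, where 31 of 140 and 31 of 133 spots had a count. In group 1 it was at 18.5 and 26.0 CPM. In group 5 the sections differed, with 19.4 CPM from 14 of 123 spots in S4 and 6.70 CPM from 2 of 71 spots in S8. All other groups lay between 14.1 and 30.6 CPM, and the sections' values overlapped from group to group. Group 2 also held more oligodendrocyte signal than most, with its 5 markers at 2943 and 3666 CPM. Group 4 had these markers at 4844 and 6342 CPM and Ptch1 at 14.1 and 23.8 CPM. The part of oligodendrocytes in the Ptch1 levels was not tested.

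Smo, the signal transducer that Ptch1 restrains, was sparse throughout. In S8 it was at 15 CPM in group 2 and 16.8 CPM in group 5, but in S4 the same groups stood at 5.10 and 5.17 CPM, within the 3.70 to 9.17 CPM of the other groups of that section that had a count. Each of these values rests on 4 to 14 spots. Evc was at 5.17 and 9.04 CPM in group 1 and at similar levels in groups 2, 5 and 9 (5.17 to 6.70 CPM), with 0 counts in the 117 and 77 spots of group 6, which allows a share of up to 2.56% and 3.90%. Each of these levels rests on 2 to 8 spots with a count. Over both sections group 1 had Evc in 15 of 277 spots, 5.42% (exact 95% binomial interval 3.06% to 8.77%). This interval overlapped that of every other group except group 6 (0% to 1.88%). The intervals pool spots of 2 sections and cover counting error only, so their overlap or lack of it is no test between groups.

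**Figure D5:**
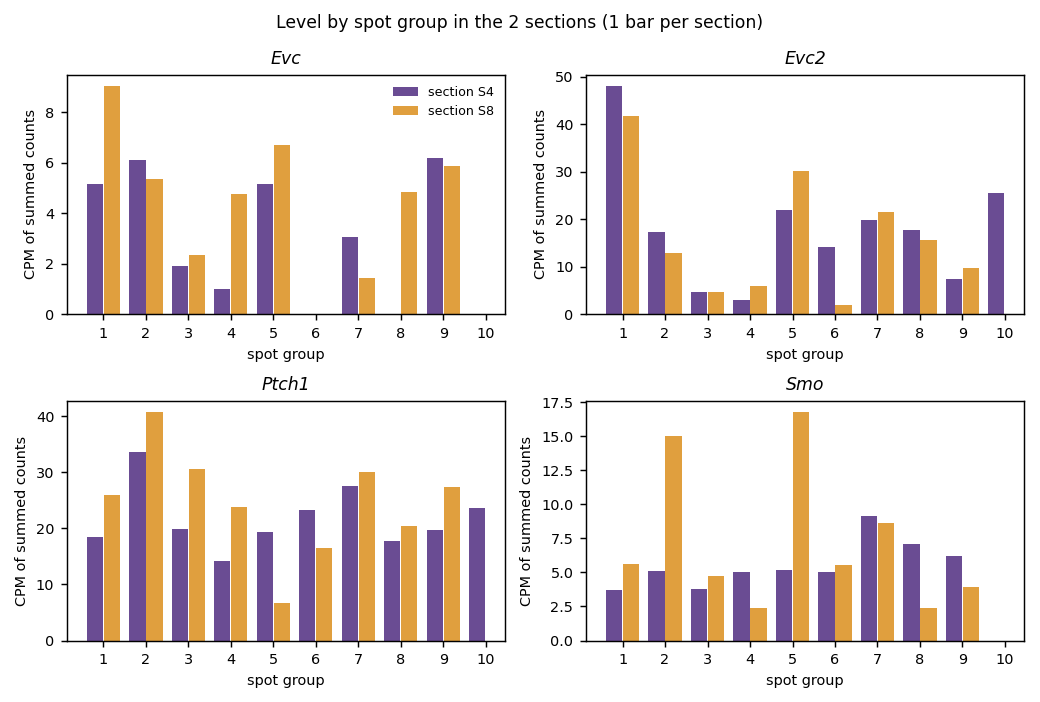
Level of Evc, Evc2, Ptch1 and Smo in each spot group, as CPM of summed counts, with 1 bar for section S4 and 1 for section S8; group 10 has no spot in S8. Evc2 is highest in group 1 in both sections (48.0 and 41.8 CPM) and Ptch1 in group 2 (33.7 and 40.7 CPM).

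Few spots held 2 of the 4 genes. Evc and Evc2 were together in 9 spots of S4 and 3 of S8, Ptch1 and Smo in 12 and 7, and Evc2 and Ptch1 in 32 and 16. The ligand Shh had 26 counts in S4 and 12 in S8, and Gli1, a target gene and transcription factor of the pathway, had 12 and 17, which is too few to compare groups. Iqce, the EvC complex partner, was at 17.7 and 19.2 CPM in group 1 and at 15.5 and 18.8 CPM over each whole section, while Evc2 was at 18.8 and 15.8 CPM over the whole sections against 48.0 and 41.8 in group 1.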

How the data were processed

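Both deposited tables hold raw counts, whole numbers for each gene in each cell or spot, with no normalization by the authors seen in the values; the submitters' processing notes name Seurat, Space Ranger and the builds NCBIM37 and mm10, and the filters, aligner and counting rules are not given in the sources used here. The authors' deposited metadata gave each cell's animal and each spot's section and total. All count columns were mapped (0 left unused). Sections S4 and S8 were not matched to the labelled section samples. Values by class and by spot group carry no test.

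Members, gene lists and markers were chosen with earlier results of these data known, and the rule that names clusters was set after seeing the data: at least 3 markers in at least 25% of cells and 1 log2 unit above the other clusters, at least 1 of them among the 10 leading genes, no other type with more there, and at least 10 cells. For clustering, cell totals were set to 10000 before the log, and 2000 variable genes without the Hedgehog list, 30 principal components, 15 neighbours and Leiden resolution 1 (seed 1) were used in scanpy 1.11.5 under Python 3.11.15. Column names give each cell its own well, and no doublet caller was run.

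Counts were summed per animal and level (at least 5 cells) and tested with edgeR 4.0.16 (R 4.3.3; filterByExpr, TMM, glmQLFit, glmQLFTest) with the animal as a block, and genes with a Benjamini-Hochberg adjusted p below 0.05 were called; the pairing comes from the animal of each cell in the deposited metadata. The SE is the log2 fold change divided by the square root of F. The edgeR step was tested on simulated data. Alternatives were DESeq2 1.42.0, no filter, no block, sums per sample, left-out animals, other resolutions, thinning to 50000 counts per cell or 3000 per spot, and a higher threshold of detection. Genes named are the members, the list by role, and per member the 5 most like it over class sums of at least 10 cells. Limits for a count of 0 use a floor of 3 counts.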

Additional observations from a re-analysis of the deposited data

How the results depend on the processing

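Evc and Evc2 stayed higher in the Calb1-led class than in all other cells under each alternative grouping, depth and averaging and without each animal. The classes matched at resolutions 0.6 and 1.5 held 239 cells each, all among the 241 of the main class. The cells with at least 100 CPM of Calb1 numbered 217, of which 197 were of the main class. These groupings share most of their cells, so their agreement is no independent support. In the Calb1-led class, the means over animals stayed within 1 SD of the reported values with resolution 0.6 or 1.5, with cells of at least 100 CPM of Calb1 in place of clusters, after thinning and with each cell's own CPM averaged. Leaving out an animal gave 8.74 to 16.1 CPM for Evc, 55.3 to 74.0 for Evc2 and 0.468 to 1.66 for Ptch1, with Evc and Ptch1 moving by over 1.5 times without animal 2. Grouping by Calb1 alone raised the level in the remaining cells to 2.70 CPM for Evc and 3.38 for Evc2. In spot group 1 Evc2 was 36.6 CPM at resolution 0.6, where the matched group had 376 spots in place of 277. Without S4 or S8 the values are those of the other section, and for Smo in group 2 these were 5.10 and 15 CPM.

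Detection depends on depth and threshold. With at least 3 counts the mean share of cells was 4.91% for Evc and 0.982% for Ptch1, against 7.20% and 2.40%, and that of spots was 0% for Evc and Smo, 0.158% for Evc2 and 0.0978% for Ptch1. Thinned, the shares were 1.32% of cells for Ptch1, and 1.29% of spots for Evc, 4.87% for Evc2, 1.59% for Smo and 6.73% for Ptch1.

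The main level fits carry the animal as a replicate block. With no replicate block, posterior against anterior in all neurons called 1 gene in place of 14, and the other 4 comparisons kept their counts; the Evc2 change of medium against anterior became 0.15. DESeq2 called 135, 14 and 124 genes for posterior against anterior, medium against anterior and posterior against medium in all neurons, and 7 and 20 for posterior and medium against anterior in the Calb1-led class. Sums per sample with the sample as a block called 92, 1 and 66, and gave 0.19 for Evc2 in medium against anterior. The 92 included Sstr3, at -1.71 for posterior against anterior. Leaving out an animal gave 1 to 10, 1 to 2 and 0 to 1 calls in all neurons (1 without animal 1 and 4 without animal 3 for posterior against anterior), and 0 to 1 and 0 to 3 in the Calb1-led class. Of the uncalled Evc and Evc2 changes under the alternatives, 58 kept their sign and 8 reversed it. Evc2 in posterior against anterior and both genes in posterior against medium in all neurons, and Evc in both comparisons of the Calb1-led class, kept their sign under each alternative run; leaving out an animal gave -1.91 to -0.03, -0.96 to -0.75 (Evc), -0.97 to -0.08 (Evc2), -1.46 to -0.58 (posterior) and 0.08 to 1.71 (medium). For the others, leaving out an animal gave, in all neurons, -1.06 (without animal 1) to 0.28 (without animal 3) for Evc in posterior against anterior, and -0.16 (without animal 1) to 1.24 for Evc and -0.99 to 0.52 (without animal 1) for Evc2 in medium against anterior. In the Calb1-led class Evc2 went from -0.39 (without animal 2) to 0.48 for posterior and from -0.37 (without animal 2 or 3) to 0.72 for medium against anterior. No alternative called Evc or Evc2 (lowest adjusted p 0.60). The cause of these shifts was not tested. Animal 1, with the fewest and shallowest cells, and 3 animals in all limit what the level contrasts can show.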
